A study of Homo sapiens with 12 samples.

Results

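Selenoprotein mRNAs were followed in HEK293T cells after siRNA against ERI2, starting from SEPP1, the mRNA of the plasma selenium carrier selenoprotein P. The group holds 10 gene names of the 55765 in the RNA-seq table (SEPP1, GPX1, GPX4, TXNRD1, TXNRD2, SEPW1, SEPHS2, SEPN1, SELK and SELT), and it was chosen by the measured fall of SEPP1 in the comparison described here, with other selenoprotein genes placed around it. The values of the 10 genes in that comparison are therefore a description, and where calls among them are counted, nothing is read from them. All 10 passed the filter on low counts. The other 15 of the 25 human selenoprotein genes, and lists of genes that make, supply or work beside selenoproteins, are set beside them and were read from the same fit of all genes.

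HEK293T, derived from human embryonic kidney, expresses the SV40 large T antigen; the protocol on cell growth calls the cells HEK293. ERI2 is a predicted exonuclease of the ERI family. Of the libraries used, 3 came from cells given ERI2 siRNA and 3 from cells given control siRNA, both from the ON-TARGETplus collection, delivered with Lipofectamine RNAiMax at 50 nM, again after 48 hours, with harvest 72 hours after the second round. No untreated cells, further ERI2 siRNA group or rescue were analysed here, so effects of the siRNA on other targets cannot be told apart from those of ERI2. The labels do not say whether replicates are separate cultures, so the spread that the p-values rest on may be technical only. Libraries held 29.1 to 38.3 (in units of 1e+06 counts). In both groups, replicate 1 lay away from the other replicates, so results that rest on it are also given by replicate.

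Selenoproteins carry selenocysteine, an amino acid inserted at a UGA codon that would otherwise end translation. A hairpin in the untranslated tail of the mRNA, the SECIS element, recruits the binding protein SECISBP2 and the elongation factor EEFSEC, which deliver the selenocysteine tRNA. Most selenoproteins are oxidoreductases with selenocysteine in the active site. Selenoprotein P has another role: it is secreted, mainly by liver, holds several selenocysteines and brings selenium to other tissues through the receptors LRP8 and LRP2. When selenium is scarce, GPX1 and SEPW1 are known to be given up first, while GPX4 and the thioredoxin reductases are kept.

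The start of the SEPP1 gene differs in base content from those of the other 9 genes, which the choice of genes did not use. RefSeq windows of 300 bases (250 before and 50 after the annotated start, build GRCh38.p14) were found for all 10 genes, 15 windows in all, of which 3 are printed below, each on its gene's strand. SEPP1 (chr5:42811843-42812142, minus strand) is shown as the gene whose mRNA differed most, SEPHS2 (chr16:30445825-30446124, minus strand) because it shares the TATAAA letters with SEPP1, and GPX1 (chr3:49358304-49358603, minus strand) as an example of the GC-rich starts. Capitals mark a forkhead-type motif, GTAAACAA, and TATAAA in SEPP1, TATAAA in SEPHS2 and a GC box, GGGCGG, in GPX1.
SEPP1: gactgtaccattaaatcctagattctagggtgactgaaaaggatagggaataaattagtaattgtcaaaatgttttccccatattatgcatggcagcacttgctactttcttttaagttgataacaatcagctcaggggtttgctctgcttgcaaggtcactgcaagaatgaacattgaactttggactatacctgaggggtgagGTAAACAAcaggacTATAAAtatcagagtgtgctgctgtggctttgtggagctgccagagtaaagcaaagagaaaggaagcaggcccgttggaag
SEPHS2: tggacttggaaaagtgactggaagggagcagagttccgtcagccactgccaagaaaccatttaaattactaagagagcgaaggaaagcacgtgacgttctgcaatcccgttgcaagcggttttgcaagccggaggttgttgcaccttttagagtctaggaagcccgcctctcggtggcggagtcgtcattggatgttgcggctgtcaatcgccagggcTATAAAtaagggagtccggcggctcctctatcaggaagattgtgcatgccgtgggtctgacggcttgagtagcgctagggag
GPX1: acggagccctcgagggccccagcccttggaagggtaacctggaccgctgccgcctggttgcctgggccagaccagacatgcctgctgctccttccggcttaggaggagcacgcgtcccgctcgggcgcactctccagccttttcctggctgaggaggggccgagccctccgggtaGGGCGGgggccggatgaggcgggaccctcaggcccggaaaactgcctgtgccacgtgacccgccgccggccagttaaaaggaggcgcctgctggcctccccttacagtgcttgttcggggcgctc

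The SEPP1 window was 42.0% G and C with 1 CpG, against 53.7% to 79.0% and 4 to 43 CpG in the 14 windows of the other 9 genes. Over all 35116 windows the median was 58.7% and 14 CpG, and the SEPP1 window lay at percentile 15.5 for base content and 11 for CpG. GTAAACAA, searched on both strands, occurred in the SEPP1 window alone among the 15, 45 bases before the start, and in 0.954% of all windows. TATAAA occurred in SEPP1 31 bases before the start, in SEPHS2 32 bases before it and in a downstream start of TXNRD2, and in 11.5% of all windows; in SEPP1 it does not overlap the forkhead-type motif. GGGCGG was found in at least 1 window of GPX1, GPX4, TXNRD1, TXNRD2, SEPW1, SEPN1, SELK and SELT but not of SEPP1 or SEPHS2, against 45% of all windows. TGACNNNGC, the core of the antioxidant response element, was found in SEPP1, both TXNRD1 windows, SEPN1 and SELK, against 13.3% of all windows. These matches describe the letters and were not tested for binding.

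**Figure D1:**
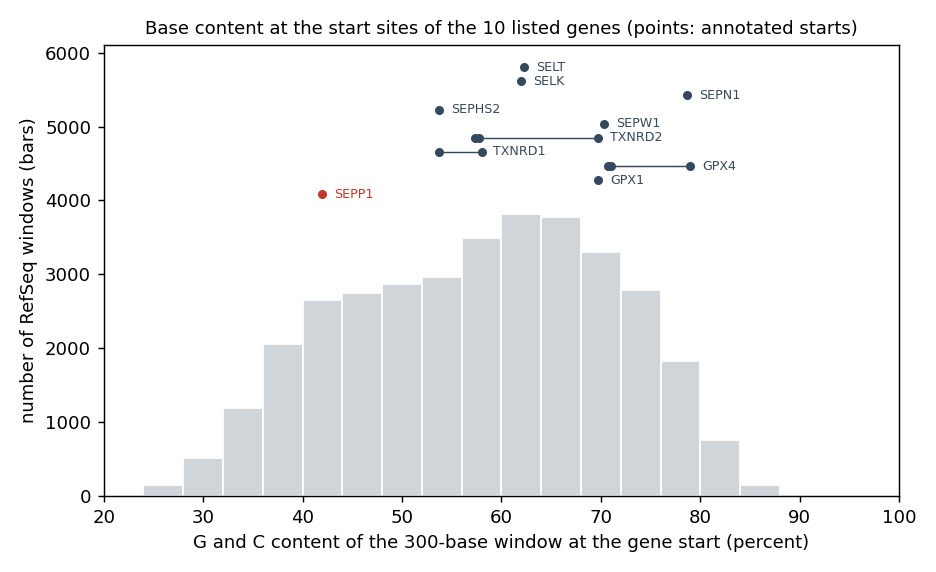
G and C content (x axis, percent) of the 300-base RefSeq windows at gene starts. Grey bars count all windows and points mark the annotated starts of the 10 genes; SEPP1, at 42.0%, lies below every start of the other 9 genes, which run from 53.7% to 79.0%.

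SEPP1 mRNA was lower in every ERI2 siRNA library than in any control library. Its level was 9.35, 9.62 and 7.98 CPM (counts per 1e+06 counts, TMM-scaled) in the ERI2 siRNA libraries, against 15.2, 15.5 and 16.1 CPM in the control siRNA libraries. The raw counts behind these values were 295, 324 and 242 with ERI2 siRNA, against 536, 573 and 462 with control siRNA. The groups did not overlap, and the lowest control value lay well above the highest ERI2 siRNA value. The means were 8.98 ± 0.875 and 15.6 ± 0.443 CPM (SD, n = 3 each), 57.6% of the control level, a log2 fold change of -0.79 (SE 0.107). Among the 10315 tested genes with a mean of at least 10 CPM, its log2 fold change was number 9 from the lowest. Among all 18843 tested genes it was number 184. SEPP1 was picked by this fall, so both ranks are a description. By replicate number the difference was -0.70 log2 units in replicate 1, -0.68 in replicate 2 and -1.01 in replicate 3. In bulk RNA, fewer cells that make an mRNA and less of it per cell cannot be told apart.

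ERI2, the siRNA target, had a similar profile over the 6 libraries. It measured 34.6, 35.8 and 32.5 CPM with ERI2 siRNA, against 54.4, 58.2 and 54.4 CPM with control siRNA (log2 fold change -0.70, SE 0.0762; edgeR adjusted p = 0.000683). SEPP1 shares chromosome 5 sequence with CCDC152, which overlaps it in RefSeq, and CCDC152 was listed at 0 in all 6 libraries. Whether the counting used strand is unknown from the sources at hand, so how reads of the shared stretch were treated was not tested.

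**Figure D2:**
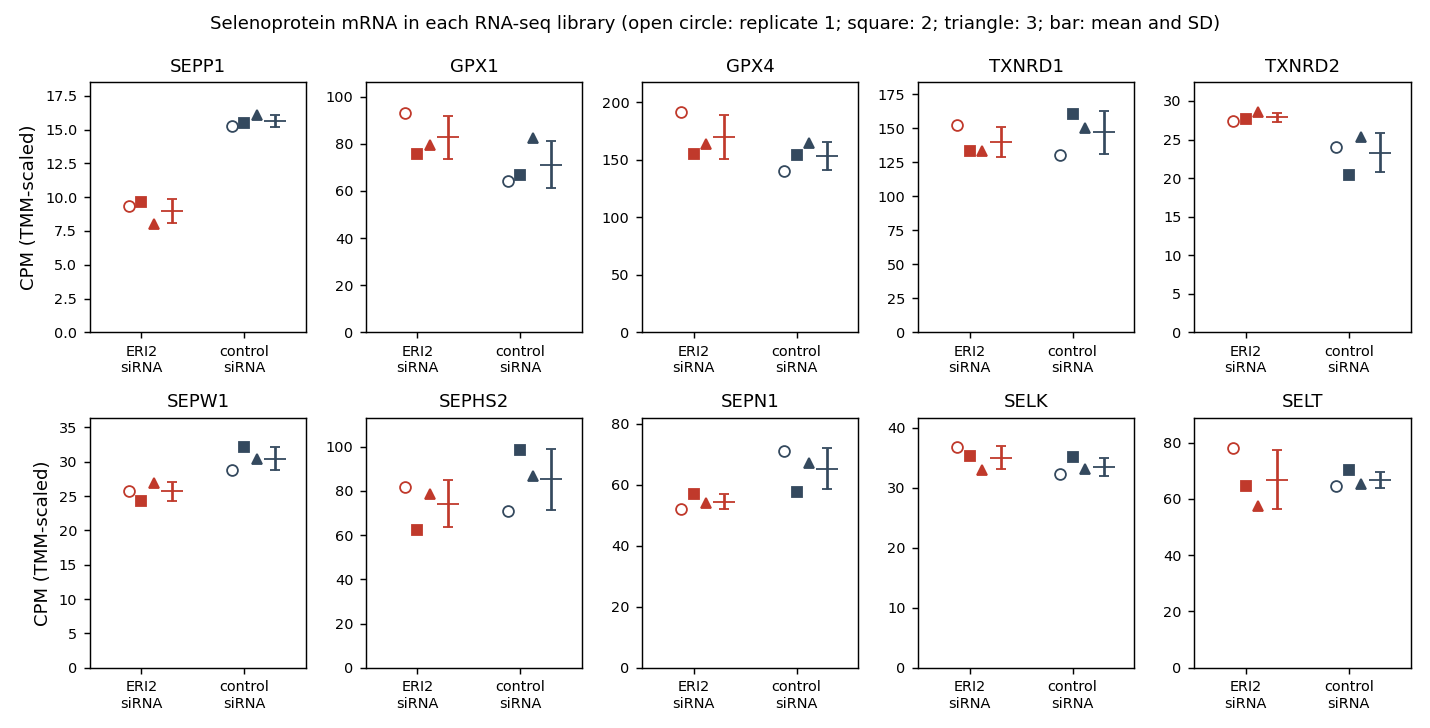
CPM (y axis, TMM-scaled, from 0) of the 10 genes in each library, with ERI2 siRNA at the left and control siRNA at the right of each panel, symbols for replicates and bars for the mean and SD of 3 libraries. SEPP1 lies between 7.98 and 9.62 CPM with ERI2 siRNA and between 15.2 and 16.1 CPM with control siRNA, while most other genes overlap between the groups.

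The other 9 genes showed smaller differences in both directions. Log2 fold changes were above 0 for 5 of the 10 genes and below 0 for 5, with a median of -0.04 over the 10, beside 0.003 over all 18843 tested genes. Under total library size in place of TMM scaling both medians moved up, to 0.02 over the 10 genes and 0.06 over all genes. The median of the 10 was above 0 too without ERI2 siRNA replicate 3 (0.03) or control replicate 2 (0.02). By the quasi-likelihood test of edgeR with Benjamini-Hochberg adjustment over all tested genes (threshold 0.05), 1 of the 10 genes was called (SEPP1, the gene that guided the choice), where 8.54% of all tested genes were (4.29% higher and 4.25% lower). Of the other 9, 2 higher and 2 lower were under 0.05 before adjustment, and DESeq2 added SEPN1 and limma-voom none. For 4 of the 10 genes the libraries of both groups were fully apart (SEPP1, SEPW1 and SEPN1 lower, TXNRD2 higher), where this held for 29.7% of all tested genes. The choice of genes used this comparison, so these counts support nothing.

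Both glutathione peroxidases were on average higher with ERI2 siRNA, within overlapping groups. GPX1, the abundant cytosolic enzyme that reduces hydrogen peroxide with glutathione, measured 93.1, 75.6 and 79.4 CPM with ERI2 siRNA, against 64.2, 66.8 and 82.6 CPM with control siRNA. Control replicate 3 lay inside the range of the ERI2 siRNA libraries (log2 fold change 0.22, SE 0.101). GPX1 has a processed copy, GPX1P1, that was counted at 5.48 ± 0.232 and 5.24 ± 1.15 CPM (SD, n = 3 each), so some of its reads may be divided between them. GPX4, which reduces lipid hydroperoxides in membranes and holds back ferroptosis, measured 191, 155 and 164 CPM with ERI2 siRNA, against 140.4, 154 and 165 CPM with control siRNA. Its groups overlapped, and only replicate 1 of the ERI2 siRNA group stood above all controls (log2 fold change 0.15, SE 0.0885). For both genes the difference was largest in replicate 1, at 0.54 log2 units for GPX1 and 0.45 for GPX4, against 0.06 and -0.0013 in the mean of replicates 2 and 3. For GPX1 that mean joined 0.18 in replicate 2 and -0.06 in replicate 3.

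The thioredoxin reductases, which use NADPH to recycle thioredoxin and carry selenocysteine next to the last residue, did not move alike. TXNRD1, the cytosolic enzyme, measured 153, 133 and 133 CPM with ERI2 siRNA, against 130.2, 161 and 150.2 CPM with control siRNA. These groups overlapped, with a log2 fold change of -0.07 (SE 0.0872). TXNRD2, the mitochondrial enzyme, measured 27.4, 27.7 and 28.5 CPM with ERI2 siRNA, against 24.0, 20.4 and 25.3 CPM with control siRNA. All 3 ERI2 siRNA libraries lay above all controls, with a log2 fold change of 0.26 (SE 0.0922) and a difference of 0.19 in replicate 1 and 0.30 in the mean of replicates 2 and 3. In RefSeq TXNRD1 overlaps EID3, which measured 2.66 ± 0.511 CPM with ERI2 siRNA and 1.26 ± 0.631 CPM with control siRNA (SD, n = 3 each). These overlapping and copied genes were looked up after the values of the 10 genes had been seen.

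SEPW1 and SEPN1 were lower in each ERI2 siRNA library than in any control library, by far less than SEPP1. SEPW1, a small thioredoxin-fold protein of the cytosol, measured 25.8, 24.3 and 27.0 CPM with ERI2 siRNA, against 28.8, 32.1 and 30.5 CPM with control siRNA (log2 fold change -0.25, SE 0.0833). SEPN1, a membrane protein of the endoplasmic reticulum whose loss causes a congenital muscle disease, measured 52.2, 57.0 and 54.0 CPM with ERI2 siRNA, against 71.0, 57.7 and 67.1 CPM with control siRNA (log2 fold change -0.26, SE 0.0847). Its lowest control, replicate 2, lay only just above the highest ERI2 siRNA library. The difference of SEPN1 was -0.44 log2 units in replicate 1 and -0.16 in the mean of replicates 2 and 3, and that of SEPW1 -0.16 and -0.29.

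SEPHS2, SELK and SELT overlapped between the groups. SEPHS2, the selenoprotein that makes the selenium donor selenophosphate, measured 81.8, 62.1 and 78.7 CPM with ERI2 siRNA, against 70.9, 98.5 and 86.5 CPM with control siRNA (log2 fold change -0.20, SE 0.117). The replicates went apart: the difference was 0.21 log2 units in replicate 1, -0.66 in replicate 2 and -0.14 in replicate 3. SELK, an endoplasmic reticulum protein that supports protein palmitoylation with ZDHHC6, measured 36.8, 35.2 and 33.0 CPM with ERI2 siRNA, against 32.2, 35.1 and 33.1 CPM with control siRNA (log2 fold change 0.06, SE 0.0800). SELT, another thioredoxin-fold protein of that membrane, averaged 66.8 ± 10.5 CPM with ERI2 siRNA and 66.7 ± 2.95 CPM with control siRNA (SD, n = 3 each), with ERI2 siRNA libraries of 78.2, 64.6 and 57.5 CPM on both sides of the controls. The sign of its fold change turned under 8 of 14 other analyses.

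**Figure D3:**
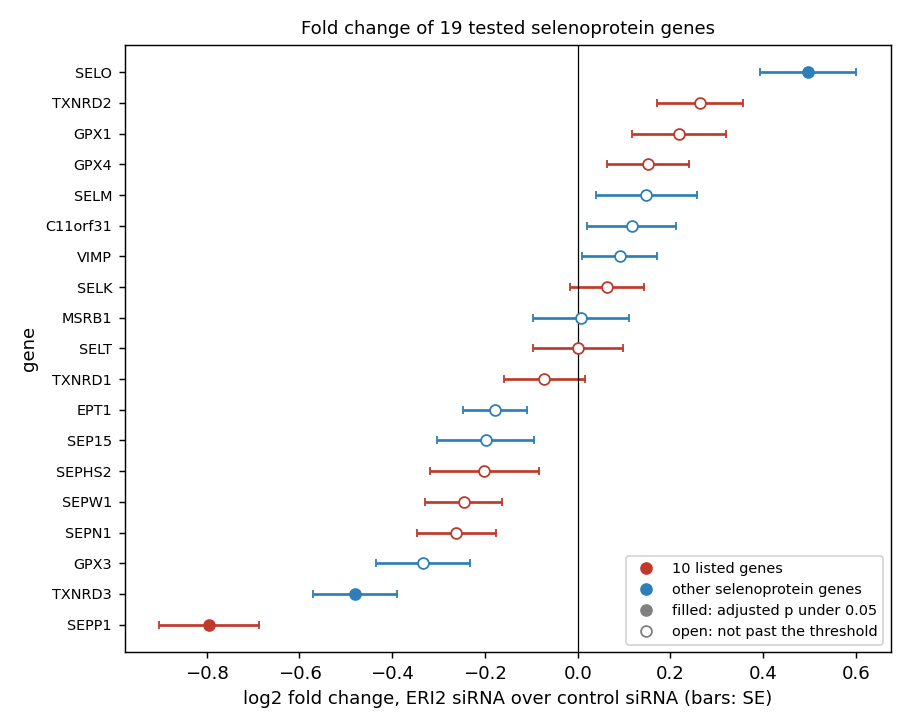
Log2 fold change (x axis, ERI2 siRNA over control siRNA, bars are the SE of the fit) of the 19 selenoprotein genes that passed the filter, ordered by value. Filled points were called by edgeR (adjusted p below 0.05): TXNRD3 at -0.48, SELO at 0.50, and SEPP1 at -0.79, the value by which the 10 genes were chosen.

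For several of the 10 genes, though not SEPP1, the sign of the difference changed with the replicate number. In replicate 1, 7 of the 10 were higher with ERI2 siRNA and 3 (SEPP1, SEPW1 and SEPN1) lower, with a median difference of 0.20 log2 units. In the mean of replicates 2 and 3, 2 (GPX1 and TXNRD2) were higher and 8 lower, with a median of -0.16. Of those 8, GPX4 (-0.0013) and SELK (-0.0014) lay so near 0 that their sign says little. The medians over all tested genes were -0.006 and 0.002. The sign was the same in both for 5 of the 10 genes. With replicates 2 and 3 alone, SEPP1 (-0.84), SEPHS2 (-0.40), SEPW1 (-0.29) and TXNRD1 (-0.23) had the lowest log2 fold changes and TXNRD2 (0.30) the highest. Nothing in the labels says that the numbers pair the libraries. Same-numbered libraries of the 2 groups deviated from their group means with correlations of -0.30, -0.08 and -0.10 across genes. With 3 libraries a group these values cannot decide whether the libraries were paired. The part of this replicate structure in the values of the 10 genes was not tested. The log2 fold change of SEPP1 ran from -0.85 to -0.72 over the 14 other analyses of the same libraries.

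**Figure D4:**
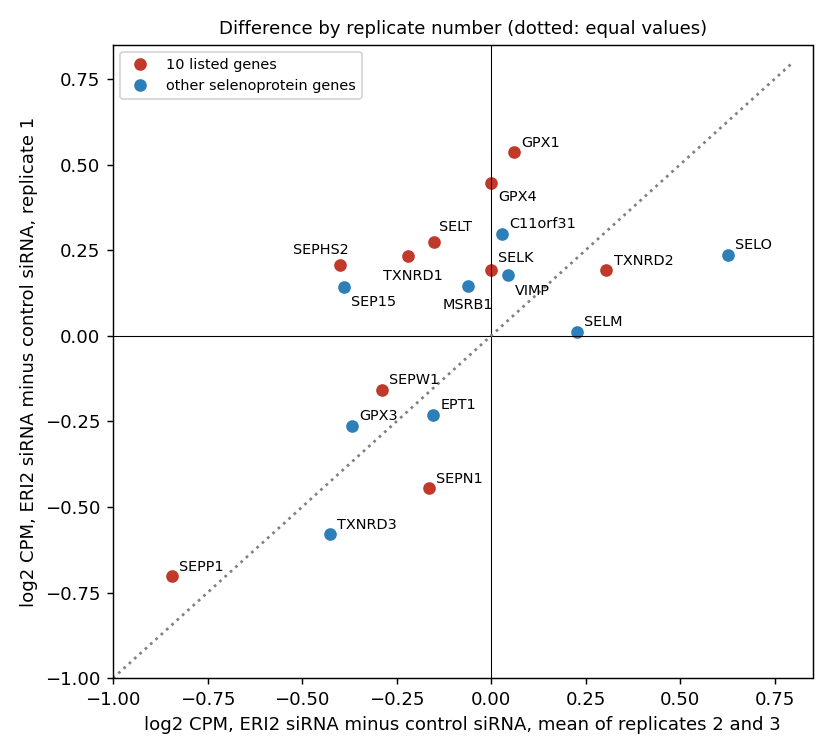
Difference in log2 CPM, ERI2 siRNA minus control siRNA, in replicate 1 (y axis) against the mean of replicates 2 and 3 (x axis) for the 19 tested selenoprotein genes. SEPP1 lies far below 0 on both axes (-0.70 and -0.84), whereas SEPHS2, SEP15, TXNRD1 and SELT lie above 0 in replicate 1 and below 0 in the others.

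Of the 15 other human selenoprotein genes 9 were tested, of which TXNRD3 fell and SELO rose, where 8.54% of all tested genes were called. Without ERI2 siRNA replicate 1, and with replicates 2 and 3 alone, 3 were called lower, where 6.81% and 14.1% of all tested genes were. The remaining 6 did not pass the filter: the deiodinase genes DIO1, DIO2 and DIO3, GPX2, GPX6 and SELV each averaged under 1 CPM in both groups, and GPX6 was at 0 in all libraries. TXNRD3, a thioredoxin reductase with an added glutaredoxin domain that is best known from testis, measured 15.3, 15.8 and 15.7 CPM with ERI2 siRNA, against 22.8, 19.9 and 22.4 CPM with control siRNA. The groups were well apart, at a log2 fold change of -0.48 (SE 0.0907; edgeR adjusted p = 0.00902), and this call held without any 1 library. SELO, a mitochondrial protein that attaches AMP to other proteins, measured 27.2, 29.1 and 33.2 CPM with ERI2 siRNA, against 23.1, 18.5 and 21.8 CPM with control siRNA (log2 fold change 0.50, SE 0.103, edgeR adjusted p = 0.0125). Without ERI2 siRNA replicate 3 its adjusted p was 0.0644, within a range from 7.21e-05 to 0.0644 over the 14 other analyses. GPX3, the secreted plasma glutathione peroxidase, lay at 13.1, 11.5 and 11.7 CPM with ERI2 siRNA, against 15.8, 15.7 and 14.3 CPM with control siRNA, and did not pass (log2 fold change -0.33, edgeR adjusted p = 0.0550). The median of the 9 tested genes was 0.007.

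Of 13 genes listed around selenocysteine insertion 1 was called, a share near the 8.54% of all tested genes. With replicates 2 and 3 alone 4 were called lower and 1 higher, where 14.1% and 13.9% of all tested genes were. SEPHS1, a relative of SEPHS2 that lacks selenocysteine, measured 78.2, 66.5 and 70.2 CPM with ERI2 siRNA, against 80.1, 100.7 and 94.6 CPM with control siRNA. Its log2 fold change was -0.36 (SE 0.0908; edgeR adjusted p = 0.0282), with a difference of -0.04 in replicate 1 and -0.51 in the mean of replicates 2 and 3. The call was lost without ERI2 siRNA replicate 2 (adjusted p = 0.131), ERI2 siRNA replicate 3 (0.102), control replicate 2 (0.110) or control replicate 3 (0.115), in a range from 8.32e-05 to 0.131 over the 14 other analyses. No gene of this list passed as higher; before adjustment 3 were under 0.05, while DESeq2 and limma-voom each called 0. Among those 3, SECISBP2, which binds the SECIS hairpin, measured 108, 116 and 109.8 CPM with ERI2 siRNA, against 99.3, 99.4 and 98.7 CPM with control siRNA (log2 fold change 0.17, edgeR adjusted p = 0.124). Its groups did not overlap, nor did those of TRIT1 (log2 fold change 0.19, edgeR adjusted p = 0.152). Of the 13 genes these 2 were higher without overlap and 1 (SEPHS1) lower, where 14.1% and 15.6% of all tested genes were. EEFSEC, SEPSECS, PSTK, TRNAU1AP and SARS, which build or deliver the selenocysteine tRNA, had overlapping groups. The median of the list was 0.003, beside 0.003 over all genes.

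Of 4 genes of selenium uptake and recycling SCLY and LRP2 rose and none fell (0 lower before adjustment, 0 by DESeq2, 0 by limma-voom), where 4.29% of all tested genes were called higher. LRP2, the large endocytic receptor megalin, which takes up selenoprotein P in kidney, measured 151, 160.3 and 169 CPM with ERI2 siRNA, against 144, 126 and 130.2 CPM with control siRNA (log2 fold change 0.26, SE 0.0763, edgeR adjusted p = 0.0472). SCLY, the lyase that frees selenium from selenocysteine, measured 19.5, 24.9 and 29.5 CPM with ERI2 siRNA, against 19.7, 16.2 and 14.6 CPM with control siRNA (log2 fold change 0.55, SE 0.141, adjusted p = 0.0301). Its groups overlapped at replicate 1, where the difference was -0.02 log2 units, against 0.82 in the mean of replicates 2 and 3. Both calls were lost without ERI2 siRNA replicate 2 (adjusted p = 0.149 for LRP2 and 0.0901 for SCLY), ERI2 siRNA replicate 3 (0.197 and 0.142), control replicate 2 (0.164 and 0.0934) or control replicate 3 (0.187 and 0.143). That of SCLY was lost under total library size too (0.0595), and over the 14 other analyses the adjusted p ran from 0.000828 to 0.197 for LRP2 and from 2.41e-05 to 0.143 for SCLY. LRP8, the receptor of selenoprotein P in brain and testis, measured 36.8 ± 2.07 CPM with ERI2 siRNA and 35.3 ± 2.33 CPM with control siRNA (SD, n = 3 each) and did not pass.

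Among 22 tested genes whose products work beside the selenoproteins 3 fell, where 4.25% of all tested genes were called lower. None of them rose (0 higher before adjustment, 0 by DESeq2, 0 by limma-voom). The number lower was 3 by DESeq2, 2 by limma-voom, 1 under RLE scaling and 1 under total library size. It was 13 with replicates 2 and 3 alone, where 14.1% of all tested genes were called lower. TXNIP, which binds and inhibits thioredoxin, measured 28.96, 30.1 and 28.4 CPM with ERI2 siRNA, against 39.6, 44.3 and 44.0 CPM with control siRNA. Its groups were far apart (log2 fold change -0.55, SE 0.0795, edgeR adjusted p = 0.00283), and this call held in all 14 other analyses. GPX8, a relative of the glutathione peroxidases with cysteine in place of selenocysteine, fell by 0.27 on the log2 scale (adjusted p = 0.0464) and GLRX, glutaredoxin, fell by 0.40 (adjusted p = 0.0495). Both lay close to the threshold. GLRX lost its call without each of the 6 libraries in turn, with adjusted p from 0.0549 to 0.193, and under limma-voom (0.0528), RLE scaling (0.0513), total library size (0.110) and a filter at 1 CPM (0.0501). GPX8 was not called under RLE scaling (0.0505) or total library size (0.0717), nor without replicate 2 or 3 of either group, with adjusted p from 0.134 to 0.203. Over the 14 other analyses adjusted p ran from 0.0272 to 0.193 for GLRX and from 0.00141 to 0.203 for GPX8. Thioredoxin itself (TXN) and all 6 peroxiredoxins did not pass. The list's median was -0.09.

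NRF2, the transcription factor of the antioxidant response, drives TXNRD1 among other genes, and of 15 tested genes of this pathway SLC7A11 rose and HMOX1 fell, where 8.54% of all tested genes were called. With replicates 2 and 3 alone 6 were called lower, where 14.1% of all tested genes were. SLC7A11, the cystine importer that feeds glutathione synthesis, measured 61.8, 58.9 and 61.2 CPM with ERI2 siRNA, against 50.8, 52.3 and 46.4 CPM with control siRNA (log2 fold change 0.28, SE 0.0742, edgeR adjusted p = 0.0329). HMOX1, heme oxygenase, averaged 6.32 ± 0.697 CPM with ERI2 siRNA and 8.90 ± 1.08 CPM with control siRNA (SD, n = 3 each; log2 fold change -0.49, adjusted p = 0.0406). SLC7A11 lost its call without any ERI2 siRNA library or without control replicate 2 or 3 (adjusted p from 0.0524 to 0.173), and HMOX1 without replicate 2 or 3 of either group (0.0914 to 0.155) and under total library size (0.0650). Their adjusted p ran from 0.0187 to 0.173 and from 0.00232 to 0.155 over the 14 other analyses. NQO1, GCLC, GCLM and SRXN1, which are classic NRF2 targets, did not pass.

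Among 12 tested ferroptosis genes 1 was called, a share near the 8.54% of all tested genes. SLC3A2, the partner chain of SLC7A11 in the cystine importer, rose and none fell (3 lower before adjustment, 0 by DESeq2, 0 by limma-voom). It measured 165, 164 and 171 CPM with ERI2 siRNA, against 119, 109.5 and 127 CPM with control siRNA, with groups far apart (log2 fold change 0.49, SE 0.0731, edgeR adjusted p = 0.00311) and a call in all 14 other analyses. Of 8 partners of the selenoproteins of the endoplasmic reticulum none passed (0 before adjustment, 0 by DESeq2, 0 by limma-voom), where 8.54% of all tested genes were called. The smallest p belonged to DERL3 (log2 fold change 0.25, edgeR adjusted p = 0.257) and ZDHHC6 (-0.14, edgeR adjusted p = 0.266). With replicates 2 and 3 alone 1 of the 8 was called higher and 1 lower, where 13.9% and 14.1% of all tested genes were. The gene called higher was DERL3 (edgeR adjusted p = 0.0350, in a range to 0.678 over the 14 other analyses).

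The forkhead factors FOXO1 and FOXO3, with HNF4A and PPARGC1A, are known to drive SEPP1 in hepatocytes. The list read here also held FOXO4, PRKAA1 and PRKAA2, which are not named as drivers. Of its 6 tested genes FOXO3 fell, where 4.25% of all tested genes were called lower. None of them rose (0 higher before adjustment, 0 by DESeq2, 0 by limma-voom). FOXO3 measured 88.3, 94.3 and 93.3 CPM with ERI2 siRNA, against 101, 118 and 112 CPM with control siRNA (log2 fold change -0.26, SE 0.0738, edgeR adjusted p = 0.0418). The groups did not overlap. The call was lost without any ERI2 siRNA library or without control replicate 2 or 3 (adjusted p from 0.0585 to 0.146) and under total library size (0.0864), in a range from 0.00432 to 0.146 over the 14 other analyses. FOXO1 lay at 41.0 ± 1.16 CPM with ERI2 siRNA and 43.2 ± 1.13 CPM with control siRNA (SD, n = 3 each) and did not pass. Of the 6 tested genes 4 (FOXO1, FOXO3, FOXO4 and PRKAA2) were lower without overlap, where 15.6% of all tested genes were. Before adjustment 2 of the 6 were under 0.05 and lower. With replicates 2 and 3 alone 2 were called lower, where 14.1% of all tested genes were. Log2 fold changes of the 6 ran from -0.26 to -0.07 (median -0.17, beside 0.003 over all tested genes). HNF4A, a defining factor of hepatocytes, was at or near 0 in every library and was not tested.

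Markers of other cell types were low. Of 7 liver markers none passed the filter, with SERPINA1 and FGB at 0 and a summed level of 0.267 to 0.507 CPM in ERI2 siRNA libraries and 0.114 to 0.279 CPM in control libraries. HEK293 markers summed to 870.4 to 1083 CPM with ERI2 siRNA and 1111 to 1239.6 CPM with control siRNA, with VIM, CDH2, NEFL and INA all above 10 CPM and PAX2 near 1 CPM. Of these 6 markers 2 (NEFL and INA) fell, where 4.25% of all tested genes were called lower. Lower without overlap were 5 of the 6 (NEFL, INA, NEFM, CDH2 and VIM), where 15.6% of all tested genes were. NEFM (log2 fold change -0.44, edgeR adjusted p = 0.0530) and VIM (-0.33, 0.0713) did not pass. Of a list of keratinocyte and general epithelial markers KRT5 and TP63 were at 0 and KRT14 and KRT17 near 0, and the list, nearly all of it the epithelial genes CDH1 and EPCAM, summed to 5.21 to 5.88 CPM with ERI2 siRNA, against 8.05 to 8.85 CPM with control siRNA, with both lower. Fibroblast markers summed to 13.8 to 18.1 CPM with ERI2 siRNA, against 15.7 to 18.96 CPM with control siRNA, with COL1A2 at 0, COL3A1 lower, and COL1A1 at 10.9 CPM with ERI2 siRNA and 8.80 CPM with control siRNA (not called). Blood markers summed to 1.39 to 1.78 CPM with ERI2 siRNA, against 1.70 to 2.51 CPM with control siRNA, with CD3E and HBB at 0. The part of these markers in the values of SEPP1 was not tested.

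The genes most like SEPP1 over the 6 libraries were not selenoproteins. By the root mean square difference of log2 CPM after subtracting each gene's own mean, among 10314 other genes of at least 10 CPM, the nearest were ERI2 (0.0791 log2 units), TP53INP1 (0.0842), a p53-induced gene, and CAV1 (0.0848), the main protein of caveolae. ELAVL1 (0.0972), which encodes the RNA-binding protein HuR, and CDKN1A (0.0974), an inhibitor of cyclin-dependent kinases, followed, and the median over all candidates was 0.399. ELAVL1 measured 71.7, 67.4 and 64.1 CPM with ERI2 siRNA, against 105, 114 and 106 CPM with control siRNA. The selenoprotein genes nearest to SEPP1 were TXNRD3 (0.193, number 112 among the candidates) and GPX3 (0.258, number 510), and the farthest of the 10 listed genes was TXNRD2 (0.548). This measure describes 6 libraries of 2 groups, in which any gene with a similar fold change and little spread lies near SEPP1.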

How the data were processed

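For RNA-seq the authors deposited raw read counts per gene name in 1 table; the values are whole numbers and their totals differ between libraries. A miRNA table was not used here. The submitters' processing notes name hg19, HTSeq 0.6.1p1, TopHat2 2.0.10 and CASAVA 1.8.2 without saying what each did. The sources used here give neither the annotation release nor the strand setting. Each column name matched a sample title. After filterByExpr and TMM scaling, the counts were fitted with edgeR 4.0.16 (quasi-likelihood, robust; R 4.3.3), 3 libraries a group, with Benjamini-Hochberg adjustment over 18843 genes and a threshold of 0.05. Alternatives were DESeq2 1.42.0, limma 3.58.1 (voom), other scalings and filters, the replicate number as a block, each library left out, and replicates 2 and 3 alone. Differences by replicate and likeness to SEPP1 used log2 CPM with a prior count of 2. The 10 genes and all lists were chosen with earlier results of these data known, and the named genes follow a rule: the 10 genes, every called gene of the other selenoprotein, insertion and uptake lists, up to 4 called genes (or, with none called, the 2 of smallest p) of each other list, ERI2, and the 5 genes most like SEPP1. Other genes named (such as GPX3, SECISBP2, LRP8, FOXO1, the peroxiredoxins and the overlapping genes) were chosen after their values were seen. The SE is the size of the log2 fold change over the root of F. On simulated data for this comparison (18843 genes), 61% of 200 genes changed 1.5-fold and 78% of 200 genes changed 2-fold were recovered, with 5 and 8 false calls. The simulated counts were drawn separately for each gene, without the shift of replicate 1 seen in the real libraries. These rates may therefore not carry over to the real libraries. Promoter sequences and gene overlaps come from RefSeq tables of GRCh38.p14, matched through older symbols. These coordinates are not those of the build used for counting.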

Additional observations from a re-analysis of the deposited data

How the results depend on the processing

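ERI2, TXNIP and SLC3A2 kept their direction and their side of the threshold in all 14 other analyses. So did SEPP1, which these libraries chose and whose calls therefore support nothing. The counts over all genes did not: 809 higher and 800 lower became 1290 higher without a count filter, 463 lower under total library size, and 2622 higher and 2670 lower with replicates 2 and 3 alone. With the replicate block they were 105 and 98, and whether the numbers pair the libraries is not known. Leaving out single libraries gave 176 to 1424 higher and 195 to 1327 lower. Of the 10 selenoprotein genes, 2 were lower (SEPP1 and SEPN1) under DESeq2, without a count filter and without control replicate 2 (1 to 2 over the libraries left out), and 4 lower and 1 higher with replicates 2 and 3 alone, where 14.1% and 13.9% of all genes were called. With those replicates alone, GPX4 (-0.0058) and SELK (-0.0061) turned sign. SELT, whose fold change is near 0, turned to -0.0060 under DESeq2, -0.0099 under limma-voom, -0.0092 without a filter, -0.0090 with the replicate block, -0.0097 as a difference of log2 CPM and -0.15 with replicates 2 and 3 alone, and ranged from -0.14 to 0.10 over the libraries left out. The replicate block ended the calls of TXNRD3 and SELO (edgeR adjusted p = 0.0601 for both), SEPHS1 (0.123), SCLY (0.118), LRP2 (0.173), GPX8 (0.160), GLRX (0.137), SLC7A11 (0.135), HMOX1 (0.141) and FOXO3 (0.136). The cause of these shifts was not tested. SEPP1 rests on 242 to 573 counts per library, and depth limits most the genes that did not pass the filter.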
